A study of Mus musculus with 5375 samples.

Results

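Tissue inhibitors of metalloproteinases (TIMPs) and matrix metalloproteinases (MMPs) were followed in lung endothelial cells (ECs) and in metastasizing tumour cells (TCs). The 7 genes Timp1, Timp2, Timp3, Mmp3, Mmp9, Mmp13 and Mmp14 were chosen by name, with levels of these same animals already known, from 35308 genes in the endothelial count tables and 35299 in the tumour cell tables. Each gene was read as CPM, its counts scaled to a common library total, over the summed cells of an animal, and as the share of cells with a read. All 7 genes are in both sets of tables. Since the choice of the genes used the endothelial days and the tumour cell gates, their differences between days and gates are given as a description and without a p-value.

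ECs came from lungs of wild-type adult female BALB/c mice, either uninjected (day 0, 4 animals, 839 kept cells) or at day 1.5 (3 animals, 941 cells) and day 3.5 (3 animals, 699 cells) after intravenous injection of 4T1-GFP cells. 4T1 is a mouse breast cancer line from the same strain, labelled here with green fluorescent protein and a dilutable CellTrace dye, so all TCs descend from 1 cultured line. TCs were taken from culture (day 0, 1 pool), from inside the vessels (intravascular, day 1.5, 4 animals) or outside them (extravascular, the same 4 animals), told apart by an antibody given into the blood just before death, and at day 3.5 as dye-retaining latent cells (4 animals) or dye-diluted proliferative cells, 1566 kept cells in all. The sources differ on the proliferative cells: the GEO labels and the study's methods give 4 replicates, whereas the deposited cell annotation names 1 animal for all of them, and since cells could not be tied to labelled replicates they were read as 1 pool. That animal is also the one of latent replicate 4. By the animal names of the annotation, ECs and TCs share lungs: EC replicates 1 to 3 of day 1.5 come from the animals of intravascular and extravascular replicates 1 to 3, and EC replicates 1 to 3 of day 3.5 from those of latent replicates 1 to 3. ECs were sorted as CD31+ cells negative for CD45, PDPN, LYVE and TER119. Every cell was 1 well of a SMART-Seq2 plate with no molecular identifiers. ECs were pooled for sequencing by replicate and TCs by gate, so that gate and sequencing lane cannot be told apart for the TCs.

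The median kept cell held 323654 to 350532 reads in the 3 endothelial groups and 253686 to 718192 reads in the 5 tumour cell groups. The median number of genes per EC was 2208 at day 0, 2589 at day 1.5 and 2693 at day 3.5. The 8 endothelial markers summed to 9223 to 16070 CPM in EC libraries and 20.1 to 55.1 CPM in TC libraries. The 8 tumour epithelial markers summed to 3.33 to 21.6 CPM in EC libraries and 2732 to 6447 CPM in TC libraries. Fibroblast and mural markers stayed at 0.836 to 16.96 CPM throughout, although several of those genes, and of the myeloid ones, had been used by the authors to remove ECs. Neutrophil and myeloid markers reached 244.6 CPM in latent replicate 1 and 154.7 CPM in latent replicate 4, mostly Lyz2, against at most 13.2 CPM in the other TC libraries. Of the 6 lung epithelial markers, which summed to 648 to 1176 CPM in ECs, Hopx made up most of the sum in every animal. These day 3.5 latent libraries are named below wherever a result rests on them.

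MMPs are zinc-dependent endopeptidases that cut collagens, laminins and other proteins of the extracellular matrix and the cell surface, and most are made as inactive precursors. TIMPs are small secreted proteins that bind the active site of MMPs in a tight complex. TIMP3 differs from its relatives in binding to the matrix and in inhibiting several ADAM and ADAMTS proteases, and TIMP2 also takes part in the activation of pro-MMP2 by the membrane-anchored MMP14. In lung capillaries, the aerocyte (aCap) spans the gas-exchange surface, and the general capillary cell (gCap) serves as its progenitor and regulates vascular tone.

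The genes lie on 6 chromosomes of the mouse assembly GRCm38 in the GENCODE vM21 annotation, all as protein-coding genes. Timp1 spans chrX:20870166-20874735 (plus strand), inside the opposite-strand gene Syn1 with 0 shared exon bases. Timp2 spans chr11:118301069-118355740 (minus strand) and Timp3 chr10:86300372-86349506 (plus strand). Of the 8144 exon bases of Timp3, 1733 are shared with Syn3 on the other strand, and Syn3 was at 8.09 to 78.5 CPM in EC libraries, so unstranded reads in the shared part cannot be assigned with certainty. Mmp3 (chr9:7445822-7455975) and Mmp13 (chr9:7272514-7283331) both lie in the MMP cluster of chromosome 9. Mmp9 spans chr2:164940780-164955850 and Mmp14 chr14:54431612-54445364, all 4 on the plus strand.

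Promoters were shown for 4 genes because they differ in the 2 elements marked: the AP-1 site (TGAGTCA or TGACTCA, the binding letters of Fos and Jun proteins) and the GC box (GGGCGG or CCGCCC). The sequences are the 120 bases before the RefSeq start on GRCm38.p6, 5′ to 3′, with matches in capitals.
Timp1, chrX:20870046-20870165: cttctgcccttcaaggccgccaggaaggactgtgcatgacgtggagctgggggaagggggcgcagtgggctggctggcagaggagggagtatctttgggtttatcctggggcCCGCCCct
Mmp3, chr9:7445702-7445821: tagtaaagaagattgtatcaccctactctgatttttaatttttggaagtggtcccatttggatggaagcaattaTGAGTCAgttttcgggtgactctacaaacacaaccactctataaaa
Mmp13, chr9:7272394-7272513: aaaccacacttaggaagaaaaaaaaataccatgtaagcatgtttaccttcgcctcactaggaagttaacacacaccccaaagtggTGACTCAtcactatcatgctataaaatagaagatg
Mmp14, chr14:54431478-54431597: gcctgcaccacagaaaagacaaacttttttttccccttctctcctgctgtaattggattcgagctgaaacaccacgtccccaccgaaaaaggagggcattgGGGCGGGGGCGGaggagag
All 4 are on the plus strand. In windows of 250 bases before to 50 after the start, the AP-1 letters began 46 bases before the start of Mmp3 and 35 bases before the start of Mmp13, and 5.20% of 32851 mouse promoters hold them. The letters TATAA (or TTATA), also searched and not capitalised, began 7 bases before the start of Mmp3, 16 before that of Mmp13 and 44 before that of Timp3, and 24.9% of all promoters hold them. GC boxes were found in the windows of Timp1, Timp2, Timp3 and Mmp14, against 35.7% of all promoters. Of the 7 genes, 6 had a RefSeq promoter in the table used, the exception being Mmp9. A match is a run of letters and says nothing of binding.

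ECs carried Timp2, Timp3 and, at a lower level, Mmp14 on all days, and Timp1 on the days after injection, while Mmp3, Mmp9 and Mmp13 gave a read in at most 2 of 2479 ECs each. TCs carried Timp1, Timp2, Mmp14, Mmp9 and Mmp3, with Timp3 and Mmp13 near 0. Per kilobase of exon, the level of Timp2 was the highest of the 7 in ECs at day 0 (104.1 CPM per kb ± 8.72, SD, n = 4) and day 1.5 (94.7 ± 11.2, n = 3). At day 3.5, Timp3 (75.6 CPM per kb ± 45.2, n = 3) and Timp2 (74.2 ± 12.8) did not differ beyond their spread. Per kilobase, Timp1 ranked first in every TC group, from 226.4 CPM per kb in culture to 551 ± 33.6 (n = 4) in the intravascular gate.

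**Figure D1:**
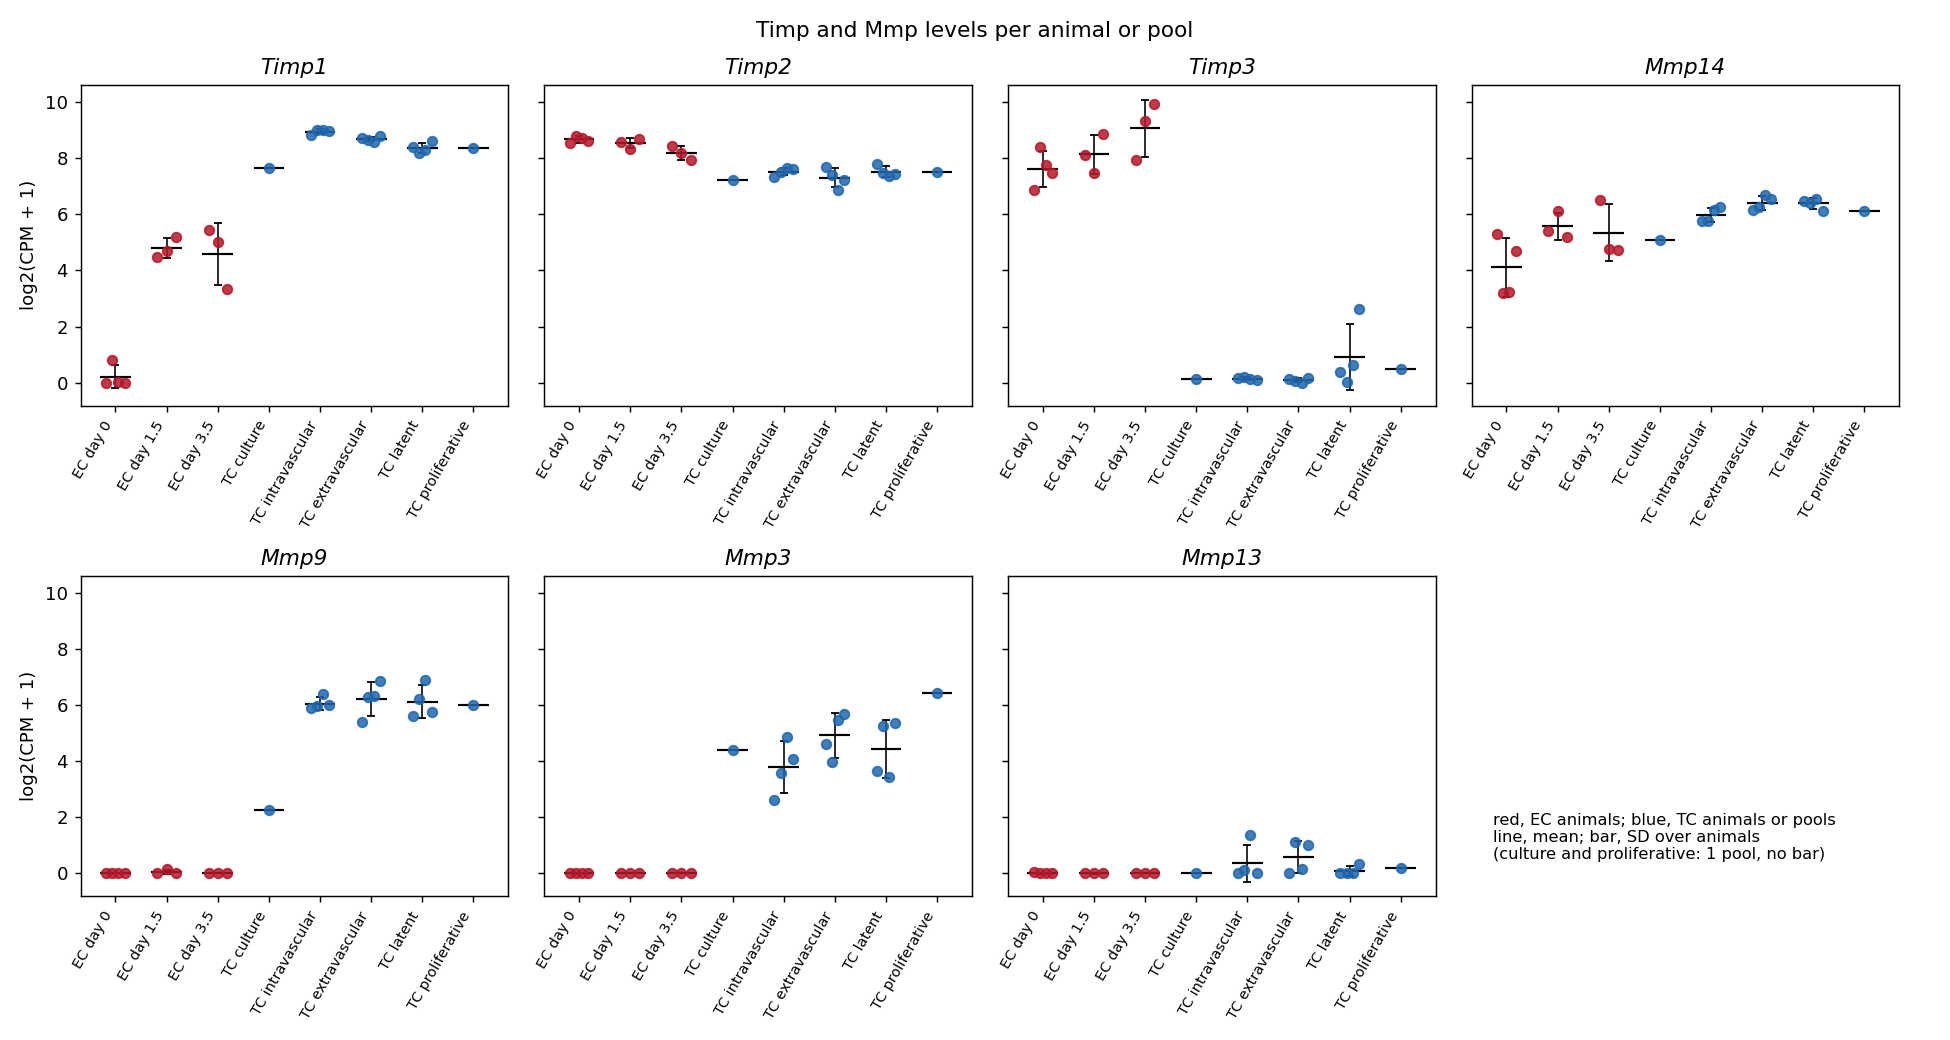
Level of each of the 7 genes, as log2(CPM + 1), in 3 endothelial (red) and 5 tumour cell (blue) groups. Each point is 1 animal or pool, lines are means and bars SD. Timp1 is near 0 in ECs at day 0, Timp3 is high in ECs and near 0 in TCs, and Mmp9 and Mmp3 show the reverse.

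Timp1, a broad inhibitor of secreted MMPs, was almost absent from ECs of uninjected lungs and present after injection. At day 0 its levels were 0, 0.76, 0.01 and 0 CPM in replicates 1 to 4, and 3 of 839 cells held a read. At day 1.5 the levels were 21.5, 24.9 and 35.5 CPM, with reads in 55 of 941 cells. At day 3.5 they were 42.4, 30.9 and 9.14 CPM, with reads in 31 of 699 cells. All 6 animals after injection lay above all 4 uninjected ones, in level and in share of cells, and the 2 later days overlapped. The log2 difference from day 0 was 7.04 ± 1.76 (SE) at day 1.5 and 7.05 ± 1.76 at day 3.5. Day 0 held 74 Timp1 reads in all, 73 of them in replicate 2, where 1 large vessel cell held 98.6%.

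After injection, Timp1 reads lay in a small share of ECs. Per animal, 4.15%, 8.19% and 5.37% of cells at day 1.5 and 4.51%, 5.63% and 3.18% at day 3.5 held a read. Within an animal, a single cell held 20.7% to 57.2% of the Timp1 reads after injection, and without that cell the levels were 9.22 to 21.1 CPM at day 1.5 and 4.13 to 22.5 CPM at day 3.5, still above all day 0 animals. With every cell thinned to 100000 reads, the shares were 3.90% ± 1.14 (n = 3) at day 1.5 and 3.28% ± 1.34 at day 3.5, against 0.125% ± 0.25 (n = 4) at day 0. Of all genes, 9.35% had shares that did not overlap between day 1.5 and day 0 (8.05% at the thinned depth) and 14.6% between day 3.5 and day 0 (16.3% thinned). The tumour epithelial markers summed to 5.19 to 18.5 CPM in day 0 ECs, 9.70 to 21.6 CPM at day 1.5 and 3.33 to 8.46 CPM at day 3.5. Cells with a Timp1 read were deeper than those without, with a median of 390878 against 319898 reads at day 1.5. Tumour epithelial marker reads were found in 18.2% of Timp1-positive and 19.1% of Timp1-negative ECs at day 1.5, and in 22.6% and 19.3% at day 3.5. Neutrophil and myeloid marker reads were found in 25.5% of positive and 15.6% of negative cells at day 1.5 and in 25.8% and 20.8% at day 3.5, and fibroblast and mural marker reads in 21.8% and 19.8% at day 1.5 and in 29.03% and 13.3% at day 3.5. An Epcam read was found in 2 of 55 positive and 5 of 886 negative cells at day 1.5 and in 0 of 699 cells at day 3.5. The part of these markers and of depth in the Timp1 reads was not tested. The 3 cells richest in Timp1, with 1592 to 1859 reads, held 978 to 2384 endothelial marker reads and 0 tumour epithelial marker reads.

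Timp2, the inhibitor that also docks pro-MMP2 on MMP14, was found in 40.1% to 61.2% of the ECs of every animal. Its level was 365.2, 443.4, 420.9 and 392.5 CPM at day 0, 382.6, 320 and 404.3 CPM at day 1.5, and 340.2, 285.9 and 240.8 CPM at day 3.5. The 3 animals of day 3.5 lay below the 4 of day 0, whereas day 1.5 overlapped with both. The log2 difference between day 3.5 and day 0 was -0.55 ± 0.18. The shares of cells with a read were 52.7% ± 8.41, 54.9% ± 5.69 and 47.1% ± 2.28 for the 3 days, and those of day 3.5 overlapped with day 0 but lay below those of day 1.5, at no more than 49.3% against no less than 50.2%, as for 8.1% of all genes (9.95% at the thinned depth). With cells thinned to 100000 reads the Timp2 shares of these days overlapped.

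Timp3, the matrix-bound inhibitor, spread widely between animals of the same day. Its level was 114.3, 330.5, 214.6 and 177.2 CPM at day 0, 275.5, 174.4 and 458.5 CPM at day 1.5, and 240.9, 629.9 and 976.6 CPM at day 3.5. Replicates 2 and 3 of day 3.5 stood above every other animal, while replicate 1 of that day lay within the range of day 0. The log2 difference between day 3.5 and day 0 was 1.49 ± 0.49. The share of cells with a Timp3 read was 35.6% ± 4.06 at day 0, 49.7% ± 10.3 at day 1.5 and 60.6% ± 16.9 at day 3.5, and day 3.5 lay above day 0 in every animal, also with cells thinned to 100000 reads (27.2% ± 3.97 against 48.7% ± 14.9), a separation found for 14.6% of all genes with all reads and 16.3% thinned. No single cell held more than 18.2% of an animal's Timp3 reads.

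Mmp14, the membrane-anchored collagenase that activates pro-MMP2, was the only MMP of the list with more than scattered reads in ECs. Its level was 38.6, 8.15, 8.42 and 24.6 CPM at day 0, 40.7, 68.5 and 35.6 CPM at day 1.5, and 90.1, 26.4 and 25.7 CPM at day 3.5, and the levels of the 3 days overlapped. Single cells weighed heavily: 1 cell held 72.8% of the Mmp14 reads of day 0 replicate 1 and 47.4% of those of day 3.5 replicate 1. Without the top cell of each animal the levels were 6.95 to 11.4 CPM at day 0, 29.9 to 47.7 CPM at day 1.5 and 17.8 to 47.8 CPM at day 3.5. The share of cells with a read was 25.5% ± 4.43, 31.4% ± 3.66 and 37.01% ± 2.60 for the 3 days, with all animals of day 3.5 above all of day 1.5 and of day 0. Of all genes, 8.1% did not overlap in share between day 3.5 and day 1.5 and 14.6% between day 3.5 and day 0. Thinned to 100000 reads, the Mmp14 shares were 18.6% ± 2.42, 22.6% ± 0.533 and 26.5% ± 2.14. Thinned, the Mmp14 shares did not overlap between any of the days, as for 8.05% of all genes between day 1.5 and day 0, 9.95% between day 3.5 and day 1.5 and 16.3% between day 3.5 and day 0.

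**Figure D2:**
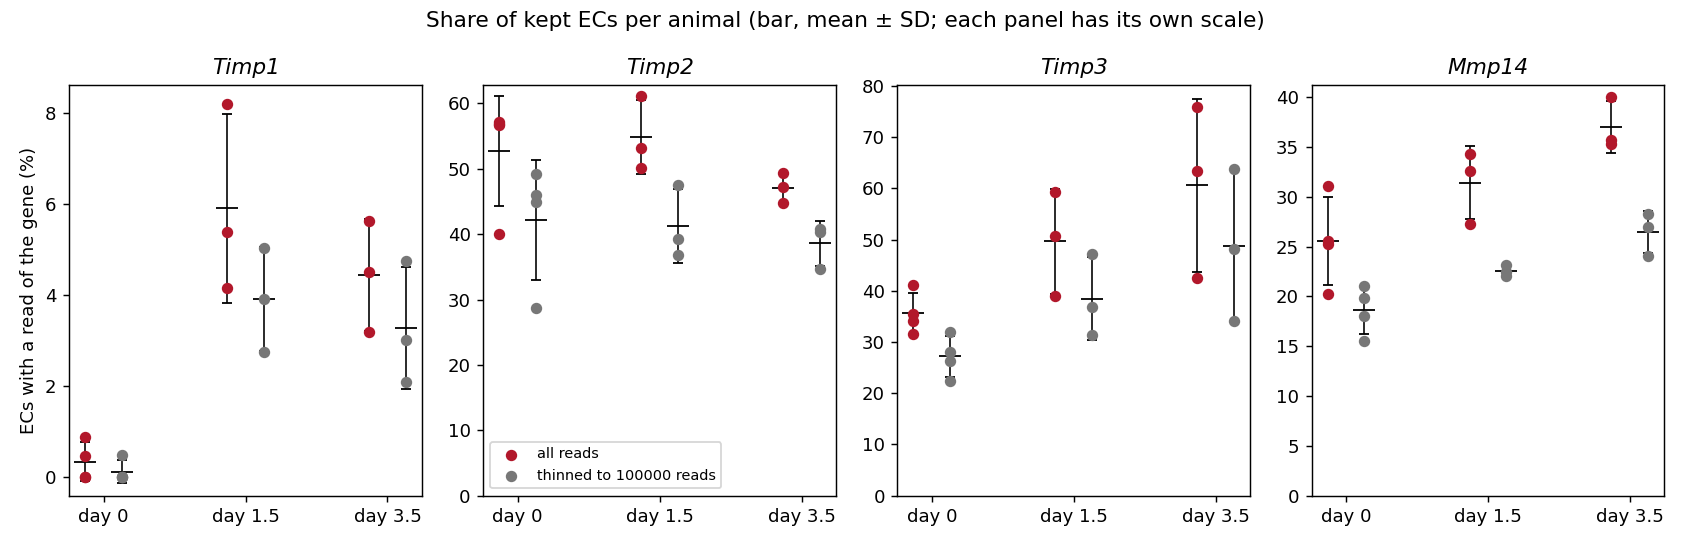
Share of kept ECs with a read of Timp1, Timp2, Timp3 and Mmp14 (percent), per animal, at days 0, 1.5 and 3.5, with all reads (red) and with each cell thinned to 100000 reads (grey). Bars are mean ± SD over 4, 3 and 3 animals. With all reads, the Timp1 share stays below 1% at day 0 and lies between 3.18% and 8.19% later, and thinned it lies between 2.09% and 5.04% later.

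Mmp9 (gelatinase B), Mmp3 (stromelysin 1) and Mmp13 (collagenase 3) were at the limit of detection in ECs. Mmp3 gave 1 read in each of 2 cells at day 0 and 0 reads in the 941 ECs of day 1.5 and the 699 of day 3.5. Mmp13 gave 2 reads in 1 cell at day 0 and 1 read in 1 cell at day 1.5. Mmp9 gave 8 reads in 1 cell and 1 read in another, both of day 1.5 replicate 2. The cell with 8 Mmp9 reads held 19 endothelial and 313.8 tumour epithelial marker reads among 552623 reads, unlike the other, which held 3164 and 0. Where a gene had 0 reads in all 699 cells of day 3.5, a share of up to 0.429% is allowed, which covers counting error only.

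The counts of members that passed a test are given against the background of each comparison. By edgeR's quasi-likelihood test, 0 of 17585 genes were called (0%) between day 1.5 and day 0, 0 (0%) between day 3.5 and day 1.5 and 0 (0%) between day 3.5 and day 0, and with them 0 of the 4 members tested, since Mmp3, Mmp9 and Mmp13 fell under the filter on low counts. An unadjusted p under 0.05 was found for 1422, 798 and 1541 genes, and DESeq2 called 1.34%, 0.498% and 1.9% of 26722 genes, Timp1 being 1 of them in both contrasts with day 0. The days were used to choose the members, so nothing is read from their calls. Of all genes tested, 7.49%, 9.7% and 7.88% did not overlap between the groups in the same 3 contrasts.

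Day 0 animals had been sorted on either of 2 sort days, replicates 1 and 2 with the animals of day 1.5 and replicates 3 and 4 with those of day 3.5. With sort day as a term, the log2 differences for day 3.5 against day 0 were 1.61 ± 0.66 for Timp3, -0.53 ± 0.22 for Timp2 and 1.46 ± 0.87 for Mmp14, against 1.49, -0.55 and 1.183 without it. For Timp1 that term set day 3.5 against 2 animals with 1 read between them and gave 11.83 ± 2.40, a size that depends on the prior count. Whether the cells were fewer or held less RNA of a gene cannot be told apart in the summed level of an animal, which is why the share is given beside it.

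Of the wider pathway, 0 genes in any of 7 lists were called by edgeR between endothelial days. The lists hold other MMPs, other MMP inhibitors, ADAM and ADAMTS proteases, the plasminogen system and furin, surface partners, basement membrane and matrix substrates, and AP-1 factors, and they were written with earlier results of these data known. For basement membrane and matrix substrates (19 tested), the median log2 difference between day 1.5 and day 0 was 0.48, against -0.05 over all genes. Within that list Col4a2, a chain of type IV collagen, differed by 1.181 ± 0.20 (adjusted p = 0.301) and Sparc, a collagen-binding matricellular protein, by 1.12 ± 0.25 (adjusted p = 0.403), which missed the threshold. Among the other MMPs (10 tested), Mmp15, a membrane-type MMP, had the highest mean level, 52.7 CPM, and differed by 0.19 ± 0.54 (adjusted p = 0.963). Of the other MMP inhibitors (3 tested, median 3.33), Timp4, the remaining family member, had a mean of 11.3 CPM, with 1 animal of day 0 at 95.5 CPM, and differed by -3.34 ± 2.05 (adjusted p = 0.716). Reck, a membrane-anchored MMP inhibitor, differed by 3.33 ± 1.67 (adjusted p = 0.644) from 0.451 CPM at day 0, and Tfpi2 was at 0 in all day 0 animals and at 1.105 CPM ± 0.913 (n = 3) at day 1.5 (adjusted p = 0.452). Of the AP-1 factors, 7 were tested, and Jun and Fos differed by -0.60 ± 0.19 (adjusted p = 0.501) and -0.34 ± 0.28 (adjusted p = 0.804).

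The capillary classes were not used to choose the 7 genes, and none of the 7 is a marker of either class, so their difference between aCap and gCap was tested. ECs were classed by the marker scores and limits of the study, giving 602 aCap and 1580 gCap cells, besides 24 cells above the limit of the cycling score and the large vessel and unclassified ones. Of the capillary cells, 8.89% lay within 0.1 of a limit. The aCap share of ECs was 24.4% to 27.5% per animal at day 0, 23.003% to 28.67% at day 1.5 and 15.96% to 24.8% at day 3.5. The median aCap cell held 382688 reads and 2681 genes and the median gCap cell 329364 reads and 2477 genes.

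Timp2 and Timp3 were higher and Mmp14 lower in aCap than in gCap cells of the same animal (plot of capillary classes). Timp2 was at 751.9 CPM ± 130.9 (SD, n = 10 animals) in aCap and 223.4 ± 89.2 in gCap cells, with a log2 difference of 2.19 ± 0.21 (SE; adjusted p = 1.82e-05). In aCap cells it ranged from 549 to 965 CPM and in gCap cells from 127.9 to 423.8 CPM, and the ranges did not overlap. Timp3 was at 932 CPM ± 898 in aCap and 113.3 ± 85.8 in gCap cells, with a log2 difference of 3.47 ± 0.38 (adjusted p = 6.22e-05). The lowest aCap animal (302.9 CPM) lay above the highest gCap animal (273.996 CPM). Mmp14 was at 10.99 CPM ± 6.69 in aCap and 47.8 ± 37.5 in gCap cells, with a log2 difference of -1.59 ± 0.45 (adjusted p = 0.0450), and the ranges of 3.43 to 20.6 CPM and 8.997 to 133.8 CPM overlapped. Timp1 did not pass the test, at -0.82 ± 0.96 (adjusted p = 0.699), and was found in 26 of 602 aCap and 49 of 1580 gCap cells. The Mmp3, Mmp9 and Mmp13 reads of capillary cells all lay in gCap cells, in 2, 1 and 2 cells.

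Of 17797 genes tested between the classes, 1444 were called (8.11%), and 3 of the 4 members tested were among them, 2 higher and 1 lower in aCap cells. The median log2 difference over all genes was -0.38 in this fit, 0.19 with DESeq2 and 0.06 with no replicate block, so that the distance of a gene from the median depends on the fit. Timp2 and Timp3 were higher in 10 of 10 animals and Mmp14 lower in 10 of 10 (exact sign-flip permutation test on log2(CPM + 1), two-sided p = 0.00195 for each, the smallest this test can give with 10 animals, 4 members compared), as were 1.27% and 4.52% of all genes. For Timp2 and Timp3 the adjusted p stayed under 0.05 with each animal left out in turn. For Mmp14 it was 0.035 without day 0 replicate 3 and 0.0616 to 0.108 without any other animal, the highest without day 3.5 replicate 1, so that the call was lost without any of these 9 animals.

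**Figure D3:**
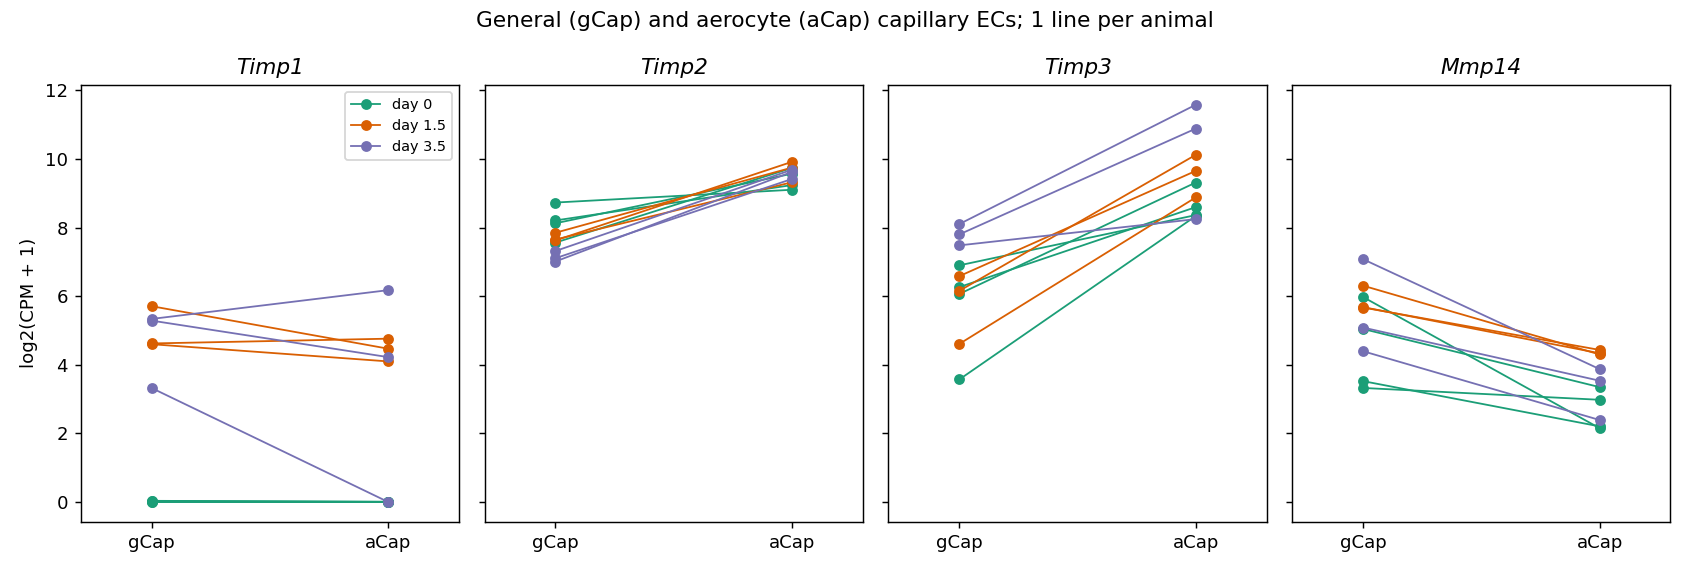
Level as log2(CPM + 1) of Timp1, Timp2, Timp3 and Mmp14 in gCap and aCap cells, 1 line for each of 10 animals, coloured by day. The Timp2 and Timp3 lines rise from gCap to aCap and the Mmp14 lines fall in all 10 animals, and the Timp1 lines go either way.

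The share of cells with a read separated the classes for Timp2 and Timp3 but not for Timp1 or Mmp14. With cells thinned to 100000 reads (1905 cells, the 12.7% that were shallower left out), a Timp2 read was found in 69.95% ± 9.89 of aCap and 31.8% ± 6.89 of gCap cells, and a Timp3 read in 64.2% ± 16.04 and 24.99% ± 11.4, each higher in 10 of 10 animals (exact permutation p = 0.00195). Of 8788 genes at 10 CPM or more, 9.1% were higher in all 10 animals on this measure, and 26.9% were higher at an exact p under 0.05. Unthinned, the shares were 76.9% and 43.1% for Timp2 and 68.4% and 37.6% for Timp3. The median gene differed by 1.181 percentage points at the thinned depth. The thinned Mmp14 share was 19.7% ± 7.36 in aCap and 24.3% ± 5.77 in gCap cells, lower in 8 of 10 animals (exact permutation p = 0.0742). The thinned Timp1 share was 2.52% ± 2.88 in aCap and 1.92% ± 1.88 in gCap cells, higher in 4 and lower in 2 of 10 animals (exact permutation p = 0.375). Without the top cell of each animal and class the Mmp14 levels were 7.42 CPM ± 5.43 and 25.7 CPM ± 18.5, lower in 10 of 10 animals.

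By edgeR the interaction of class and day was called for 0 of 17797 genes (0%) for day 1.5 against day 0, 0 (0%) for day 3.5 against day 0 and 0 (0%) for day 3.5 against day 1.5, with an unadjusted p under 0.05 for 649, 694 and 540 genes. The log2 class difference of Timp2 was 1.65 ± 0.27 at day 0, 2.29 ± 0.31 at day 1.5 and 2.78 ± 0.31 at day 3.5, and the change between day 0 and day 3.5 of 1.13 ± 0.39 did not pass (adjusted p = 1). For Timp3 the class differences were 3.37 ± 0.60 at day 0, 4.14 ± 0.69 at day 1.5 and 2.84 ± 0.69 at day 3.5, the last of which did not pass on its own (adjusted p = 0.112).

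Within the aCap class, Timp3 was at 321.9, 635.4, 328.5 and 385.9 CPM at day 0, 804, 469.7 and 1113 CPM at day 1.5, and 302.9, 1892 and 3066 CPM at day 3.5. The same 2 animals of day 3.5 that stood high over all ECs stood high here, and the third lay below every day 0 animal. In gCap cells Timp3 was at 10.9, 65.9, 118.3 and 75.9 CPM at day 0 and at 177.6, 222.1 and 273.996 CPM at day 3.5, with no overlap, as for 6.71% of all genes in this class. Timp3 in the large vessel class was at 823 CPM ± 775 (n = 10), from 5 to 28 cells an animal, and ranged from 69.3 to 2471 CPM. Timp2 in gCap cells was at 294.7, 423.8, 187.97 and 278.2 CPM at day 0 and at 158.4, 127.9 and 136.8 CPM at day 3.5, again without overlap, whereas in aCap cells, where 5.89% of all genes did not overlap, Timp2 overlapped between these days (549 to 852 against 682 to 822 CPM).

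Other protease genes also separated the capillary classes, where 8.11% of all 17797 genes were called, 596 higher and 848 lower in aCap cells. In the plasminogen system and furin (8 tested), genes were called in both directions. Plaur, the urokinase receptor, was higher in aCap cells by 2.54 ± 0.38 (adjusted p = 7.45e-04) and Plau, urokinase, by 2.99 ± 0.49 (adjusted p = 0.00142). Pcsk5, a proprotein convertase, was lower, its log2 difference being -8.39 ± 1.10 (adjusted p = 2.47e-04), as was Plat, tissue plasminogen activator, at -2.97 ± 0.75 (adjusted p = 0.0245). Of the ADAM and ADAMTS proteases (15 tested), 4 were lower in aCap cells and 0 higher, with Adamts1 at -7.12 ± 1.02 (adjusted p = 5.10e-04) and Adam15 at -4.11 ± 0.62 (adjusted p = 8.20e-04), besides Adamts7 and Adamts9. Among the other MMPs (11 tested), Mmp11 and Mmp2 were lower, at -7.29 ± 1.12 (adjusted p = 0.00119) and -4.23 ± 1.13 (adjusted p = 0.0338). Of the surface partners (9 tested), Kdr, the VEGF receptor that TIMP3 can bind, was higher by 3.01 ± 0.20 (adjusted p = 7.75e-07), and Cd44 and Cd63 were lower. Of the matrix substrates (18 tested), Col4a2 and Lamc1 were higher and Sparc and Hspg2 lower. Of the other MMP inhibitors 0 of 3 and of the AP-1 factors 0 of 7 were called by edgeR, and the medians of these lists were -1.33 and -0.39.

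In TCs, Timp1 stood highest in the intravascular gate. Its level was 201.1 CPM in the culture pool, 447, 508, 512 and 491 CPM in the intravascular gate, 420.4, 397.5, 382.5 and 434.4 CPM in the extravascular gate, 332.7, 286.7, 310.9 and 389.7 CPM in the latent gate, and 323.4 CPM in the proliferative pool. In each of 4 animals the extravascular cells lay below the intravascular ones, and the groups did not overlap. Latent and extravascular levels overlapped, but the share of cells with a read did not, at 89.4% ± 0.834 against 95.1% ± 1.26, as for 22.7% of all genes (21.4% with cells thinned to 100000 reads, where Timp1 again did not overlap). The log2 difference was -0.35 ± 0.11 for extravascular against intravascular, -0.45 ± 0.11 for latent against extravascular and 1.31 ± 0.19 for intravascular against culture. In descending order the group means were intravascular, extravascular, latent, proliferative and culture, and latent (330 CPM ± 44.01, n = 4) and proliferative did not differ beyond the spread.

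Timp2 in TCs was at 146.5 CPM in culture, 182.9 CPM ± 17.04 in the intravascular, 158.98 ± 36.6 in the extravascular and 182.7 ± 26.5 in the latent gate (n = 4 each), and 181.2 CPM in the proliferative pool. Its levels overlapped between the 3 gates. A read was found in 88.8% to 97.5% of the cells of a library. Thinned to 100000 reads, the extravascular shares (84.6% to 88.7%) lay below the intravascular ones (90.4% to 94.8%) without overlap, as for 10.3% of all genes. Timp3 was at 0 to 0.55 CPM in TC libraries except latent replicate 4, at 5.23 CPM. In that library 1 cell held 95.9% of the Timp3 reads, and that cell also held 1461 endothelial beside 4293 tumour epithelial marker reads. Without the top cell of each library, Timp3 was at 0 to 0.228 CPM in the latent and proliferative groups.

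Mmp14 was at 32.6 CPM in culture and higher in every library from the lung. It was at 53.5, 52.9, 70.4 and 74.5 CPM in the intravascular, 70.1, 75.2, 101.3 and 92.8 CPM in the extravascular and 87.5, 84.1, 92.8 and 67.5 CPM in the latent gate, and at 67.5 CPM in the proliferative pool. In 4 of 4 animals the extravascular level lay above the intravascular one, with a log2 difference of 0.34 ± 0.16, although the groups overlapped. The share of cells with a read was the higher in extravascular cells in only 1 of 4 animals. The share of TCs with an Mmp14 read was 78.9% in culture and 86.7% to 95.8% elsewhere.

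Mmp9, gelatinase B, was low in culture and higher in every library from the lung. Its level was 3.74 CPM in culture, with reads in 5.42% of cells (1 pool, 95% Clopper-Pearson interval 3.34% to 8.25%). In lung TCs it was 57.8, 60.6, 82.1 and 62.4 CPM in the intravascular, 40.9, 76.05, 79.4 and 113.1 CPM in the extravascular and 48.01, 72.5, 118.6 and 53.3 CPM in the latent gate, and 62.6 CPM in the proliferative pool. Reads were found in 48% to 65% of the cells of these libraries. The 3 gates overlapped, and the log2 difference between intravascular cells and culture was 4.16 ± 0.65. At equal depth of 100000 reads the culture share was 4.52% and the gate means 40.5% to 46.5%. The 2 latent libraries with Lyz2 had the 2 lowest Mmp9 levels of their gate.

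Mmp3, stromelysin 1, was uneven among cells of every TC group. Its level was 19.9 CPM in culture, 5.19, 10.9, 28.1 and 15.6 CPM in the intravascular, 23.2, 14.5, 43.1 and 50.3 CPM in the extravascular and 11.5, 37.2, 9.91 and 40.2 CPM in the latent gate, and 84.97 CPM in the proliferative pool. The gates overlapped, and within each of the 4 animals the extravascular level was the higher. Reads were found in 51.9% of proliferative cells and in 17.1% to 37.5% of the cells of the other libraries. A single cell held up to 66.9% of the Mmp3 reads of a library, and 1 proliferative cell held 10.01% of all Mmp3 reads of TCs. Without its top cell the proliferative pool was at 68.4 CPM. The proliferative cells were also the deepest, and at 100000 reads per cell the share was 40.2% there and 16.4% to 23.9% as the mean of the other groups.

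Mmp13, collagenase 3, was at 0 to 1.56 CPM in TC libraries, with 1 to 3 positive cells where it was found. In extravascular replicate 2, a cell of only 14460 reads held 55 of the 56 Mmp13 reads. The 69 reads of intravascular replicate 3 and the 46 of extravascular replicate 4 each came from 1 cell.

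Between gates, the members called by edgeR are given beside the share of all genes called. For extravascular against intravascular, 1.12% of 19392 genes were called and 0 of the 7 members. With 1 library left out that share ranged from 0.0416% without extravascular replicate 4 to 2.73% without extravascular replicate 1, and was 0.0417% to 0.292% without any 1 intravascular library, 0.312% and 0.0518% without extravascular replicates 2 and 3, and 0.618%, 0.436% and 0.692% without latent replicates 1, 3 and 4. For latent against extravascular, 1677 genes were called (8.65%), and Timp1 was 1 of them. The Timp1 call was lost without extravascular replicate 1, 2 or 4 or latent replicate 2 or 3. For latent against proliferative, which share the animal of latent replicate 4 without a term for it, 0 genes (0%) were called by edgeR, with an unadjusted p under 0.05 for 1072 and 0.393% of 26955 called by DESeq2, and for proliferative against extravascular 73 (0.376%), in both with 0 members. The latter share fell to 0.026%, 0.00519% and 0.0052% without latent replicates 1, 3 and 4 and to 0.0312% without extravascular replicate 4, and was 0.6% without extravascular replicate 1, 0.696% without the culture pool and 0.632% to 0.941% without intravascular replicate 1, 2 or 3. The proliferative cells are 1 pool, so its contrasts borrow their spread from the other groups. For intravascular against culture, where culture is 1 pool assumed to vary like the other groups, 940 genes were called (4.85%), with Timp1 and Mmp9 among them. Of all genes, 8.38% did not overlap between extravascular and intravascular and 16.6% between latent and extravascular libraries. The gates were used to choose the members, so nothing is read from their counts.

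Among the pathway lists, the urokinase receptor gene Plaur was the 1 gene called between extravascular and intravascular cells, higher by 1.29 ± 0.21 (adjusted p = 0.0235), which missed the threshold when replicate 3 or 4 of the extravascular or 1 or 4 of the intravascular gate was left out (adjusted p = 0.0595 to 0.0794). Between latent and extravascular cells, Plau fell by 1.64 ± 0.22 (adjusted p = 3.96e-04) and Furin, the convertase that activates pro-MMP14, fell by 1.53 ± 0.24 (adjusted p = 0.00130), while Serpine2, a serine protease inhibitor, rose by 2.14 ± 0.50 (adjusted p = 0.0166). Of the surface partners, Itgb1 fell by 1.05 ± 0.09 (adjusted p = 2.12e-05) and Cd63, a TIMP1-binding tetraspanin, by 0.25 ± 0.07 (adjusted p = 0.0482), and Lcn2, which forms a complex with MMP9, rose by 4.92 ± 0.92 (adjusted p = 0.00461). Lcn2, also a neutrophil granule gene, was at 319.3, 139.1, 8.54 and 109.3 CPM in the latent libraries, of which replicates 1 and 4 hold the myeloid marker reads, and at no more than 6.65 CPM in the extravascular ones. Its call held without replicate 1 (4.15 ± 0.86, adjusted p = 0.0130) and without replicate 4 (5.02 ± 0.99, adjusted p = 0.00936). Of the matrix substrates (20 tested), Sparc and Fn1 rose and Lamb3 fell. Sparc was at 188.6 to 230.8 CPM in the extravascular and 425.7 to 483.6 CPM in the latent libraries, and Fn1 at 200.6 to 316.9 and 411.9 to 781.7 CPM. The 10 fibroblast and mural markers summed to 1.86 to 3.64 CPM in extravascular and 2.52 to 16.96 CPM in latent libraries, with Lum and Pdgfrb at 0 in all of them, and the 8 endothelial markers to 20.1 to 28.4 and 24.4 to 55.1 CPM, both highest in latent replicate 4. Without that library Sparc differed by 0.90 ± 0.20 (adjusted p = 0.0189) and Fn1 by 1.07 ± 0.21 (adjusted p = 0.00865). With limma on the mean log10 values the Sparc call was lost (0.36 ± 0.24, adjusted p = 0.234), while Fn1 stayed called (1.05 ± 0.19, adjusted p = 1.54e-05). Of the 7 AP-1 factors, Fos rose by 1.90 ± 0.23 (adjusted p = 2.08e-04) and Jun by 0.88 ± 0.18 (adjusted p = 0.00695). Between the 1 proliferative pool and extravascular cells, with the pool assumed to vary like the other groups, Itgb1 and Lamb3 were lower and Fos higher, the last by 1.70 ± 0.32 (adjusted p = 0.0430). The Fos call was lost without extravascular replicate 2 or 4, intravascular replicate 4 or latent replicate 1, 3 or 4, and the Lamb3 call without extravascular replicate 4 or latent replicate 1, 3 or 4, whereas the Itgb1 call held with each library left out (adjusted p at most 0.0461). Between intravascular cells and the 1 culture pool, under the same assumption, Cd44, Itgb1, Cd63, Lamb3, Lama3, Col18a1, Fosb and Fos were higher and Serpinb2 lower, with Cd44, a hyaluronan receptor that can dock MMP9, higher by 2.01 ± 0.23 (adjusted p = 4.33e-04). The other MMPs, other MMP inhibitors and ADAM lists had 0 genes called by edgeR in the 5 gate contrasts.

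Cell cycle phase scores, which the choice of genes had not used, were tested next. TCs of the 3 gates with 4 animals were split by the sum of their S and G2M phase scores, above 0 as high-score and otherwise as low-score cells, within each of 12 libraries. The high-score share was 72.6% to 80.5% in the intravascular, 70.7% to 81.7% in the extravascular and 56.5% to 70.2% in the latent libraries, 55.8% in the culture pool and 78.5% in the proliferative pool. The share was thus lowest in culture, and most dye-retaining latent cells were high-score, so the split is one of phase gene expression and not a count of dividing cells. Of 16556 genes tested, 543 were called (3.28%) and 0 of the 7 members by edgeR, 0 of them at an unadjusted p under 0.05 (adjusted p from 0.417 for Timp2 to 0.918 for Timp3). DESeq2 called 6.01% of 26196 genes, Mmp13 among them, a gene with a read in 2 intravascular, 4 extravascular and 1 latent cells. The median log2 difference over all genes was 0.15 by edgeR. Timp1 differed by 0.16 ± 0.13 and Mmp14 by 0.06 ± 0.16, Mmp9 by 0.47 ± 0.31 and Mmp3 by 1.184 ± 0.69. By gate, Timp1 differed by 0.15 ± 0.16 in intravascular (adjusted p = 0.877), -0.30 ± 0.16 in extravascular (adjusted p = 0.547) and 0.64 ± 0.16 in latent cells (adjusted p = 0.0572), and the difference of 0.94 ± 0.23 between the latter gates did not pass (adjusted p = 0.191). With low-score cells only below -1, which left latent libraries alone, Timp1 was called at 1.202, with 6.43% of all genes called in that setting. The low-score side then held 11 to 23 cells in a library. Of the pathway lists, Adamts10 was higher and Fn1 and Lama5 were lower in high-score cells.

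High-score cells held a read of most genes more often than low-score cells, as for every member but Mmp13. Thinned to 100000 reads, a Timp1 read was found in 94.2% ± 3.18 of high-score and 82.02% ± 7.66 of low-score cells, higher in 12 of 12 libraries (exact sign-flip permutation test, two-sided p = 0.000488, the smallest possible, 7 members compared). Of 6805 genes at 10 CPM or more, 7.02% were higher in all 12 libraries and 43.5% were higher at an exact p under 0.05, so that a member passing this test is a common outcome. The shares were 84.2% ± 5.77 and 72.2% ± 12.5 for Mmp14 (11 of 12, exact p = 0.00244) and 48.96% ± 9.10 and 33.8% ± 11.2 for Mmp9 (10 of 12, exact p = 0.00879). For Mmp3 they were 25.1% ± 7.65 and 15.4% ± 9.10 (9 of 12, exact p = 0.0122). For Timp2 they were 91.4% ± 4.55 and 84.6% ± 9.28 (9 of 12, exact p = 0.0415), a difference of 6.76 points, which exceeded that of 55.03% of genes. Timp3 was found in 1.93% ± 2.18 and 0.347% ± 1.203 (6 higher and 1 lower of 12, exact p = 0.0312) and Mmp13 in 0.445% ± 0.809 and 0.490% ± 1.70 (exact p = 1). At the same depth the median gene of 6805 also had a share 5.95 points higher in high-score cells, with 90% of genes between -2.66 and 19.1 points, and the differences of 12.2, 11.9, 15.2 and 9.74 points for Timp1, Mmp14, Mmp9 and Mmp3 lie within that range. The median high-score cell held 4942 and the median low-score cell 4593 genes at 100000 reads. The intravascular and extravascular libraries share 4 animals, which neither test takes into account.

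**Figure D4:**
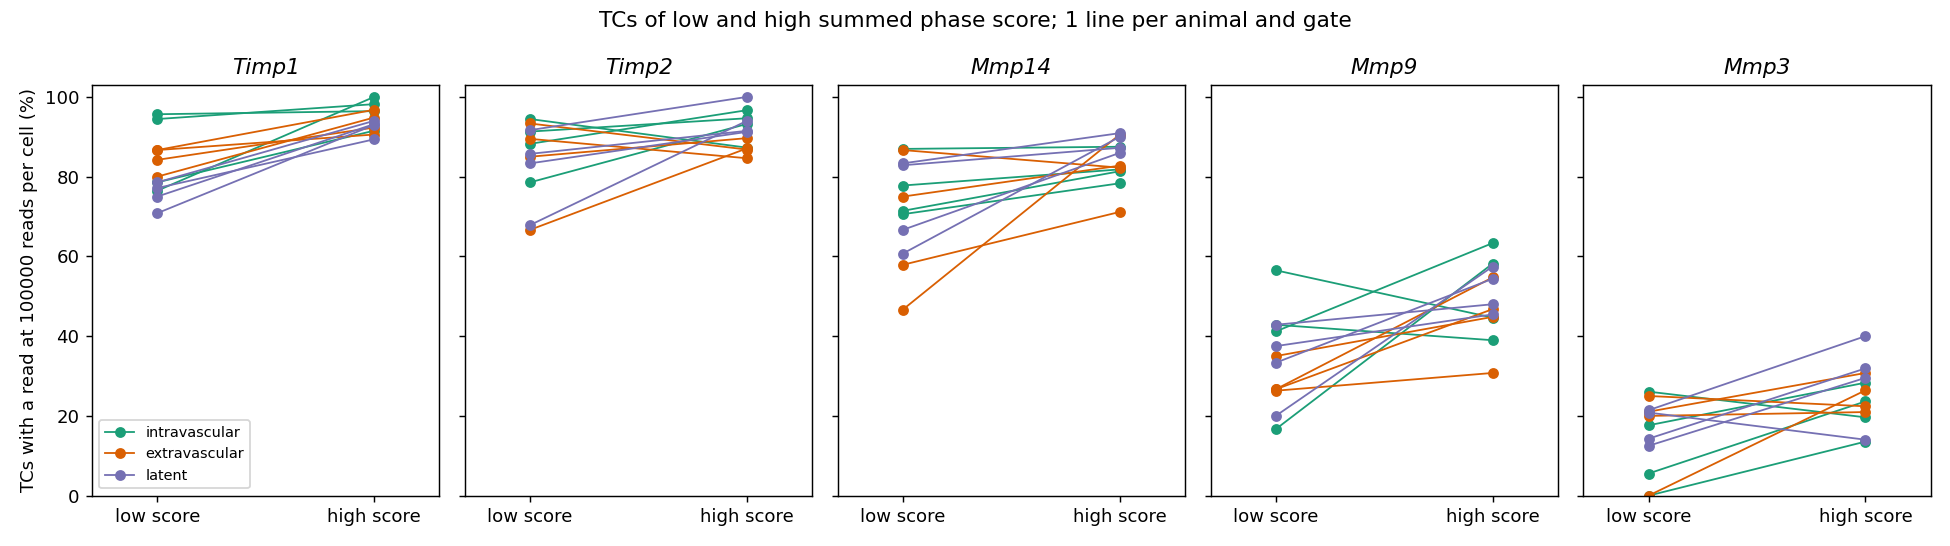
Share of TCs with a read at 100000 reads per cell (percent) in cells of low and high summed phase score, 1 line per animal and gate (12 lines in each panel). The Timp1 line rises in 12 of 12 libraries, the Mmp14 line in 11, the Mmp9 line in 10, and the Timp2 and Mmp3 lines in 9.

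Genes with the most similar profile across libraries were looked up by Pearson's r of log2(CPM + 1), as a description over 10 EC or 14 TC libraries that share lanes and depth. In ECs, Timp1 was closest to Gm4332 (r = 0.98), Gm12469 (0.97) and Rps20 (0.96), Timp2 to Mrpl13 (0.95), Cdkn2b (0.90) and Fermt3 (0.86), Timp3 to Tmem252 (0.91), Fam107a (0.91) and Eln (0.91), and Mmp14 to Ralb (0.94), Micos13 (0.94) and Lyn (0.91). Cdkn2b is one of the aCap markers, and Eln encodes elastin. In TCs, the closest genes were Dnajc15 for Timp1 (r = 0.97), Chd6 for Timp2 (0.87), Jmjd8 for Mmp3 (0.86), Samsn1 for Mmp9 (0.94) and Piezo1 for Mmp14 (0.89). Among the members themselves, Mmp9 and Mmp14 were the closest pair in TCs (r = 0.82), a value that includes the low culture pool of both.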

How the data were processed

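ECs and TCs were sequenced as single cells with a modified SMART-Seq2 protocol. The deposited expected counts per gene and cell were made by the authors with Salmon 0.7.2 on GRCm38 and tximport; the annotation release is not given in the sources used here. The deposited log10 values are log10 of 1 plus the count over a housekeeping mean, scaled by the authors, and served to name kept cells, to score classes and for 1 alternative. Cells kept by the authors (2479 ECs, 1566 TCs of 5375 sorted) were summed per animal or pool, rounded, and tested with edgeR 4.0.16 (TMM, filterByExpr, quasi-likelihood, Benjamini-Hochberg threshold 0.05); DESeq2 1.42.0 and limma 3.58.1 were alternatives. CPM used all rows of the count tables. Standard errors are the log2 difference over the square root of F. Classes used Seurat 5.3.0 module scores with the study's lists and limits. Wells held 1 sorted cell and no doublet caller was run. Total counts per cell are given as medians in the text; intervals and floors (3 counts) cover counting error only, since reads carry no molecular identifiers.

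Cells in the tables name an animal and not a single deposited sample. The animal annotation names 1 animal for all proliferative cells, where the labels and the study's methods give 4 replicates, and they were taken as 1 pool. Intravascular and extravascular cells of the same number come from the same animal, so there the replicate number is a true pairing; deviations of same-numbered libraries correlated by -0.00423 to 0.0329. Replicate numbers pair no animals between EC days; EC and TC libraries of the same lungs were not fitted together. The fits were tested on simulated data. The members and gene lists were chosen with earlier results of these data known. All 7 members are named, and of each list the genes called in a contrast (at most 5) or up to 2 of highest level; Tfpi2 was named after its values were seen. Some called genes of these lists are not reported here. Alternatives were other tools, filters, all sorted cells, the replicate block, score limits, each library left out, and, added after the data were seen, sort day as a term, thinning and the class levels without the top cell.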

Additional observations from a re-analysis of the deposited data

Results flagged for a closer look

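A library far from the 3 others of its group was found for 8 of 54 combinations of gene, measure and group tested by Dixon's ratio. Its limit flags about 1 in 20 sets of normal values, a rate that does not hold for genes near 0. There 3 libraries at 0 and 1 above it always pass, as for Mmp13 in day 0 ECs and latent TCs. Level and share of the same gene were also tested separately, so the 8 flags cannot be set against that rate. Timp1 in day 0 ECs was at 0.762 CPM in replicate 2 and at most 0.0122 CPM in the others, from 73 reads of which 72 lay in 1 large vessel cell. The share of day 0 ECs with a Timp2 read was 40.1% in replicate 1 and 56.6% to 57.2% in the others. Timp3 in latent TCs was at 5.23 CPM in replicate 4, from 1 cell that also held endothelial marker reads. Mmp13 was at 0.0265 CPM and in 0.450% of cells in day 0 EC replicate 1, at 1.56 CPM in intravascular replicate 3, and at 0.263 CPM and in 1.25% of cells in latent replicate 4, each from 1 cell.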

How the results depend on the processing

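Most counts of members called were 0, and a count that stayed at 0 says nothing of stability. With DESeq2 the counts were 1 for day 1.5 against day 0, 1 for day 3.5 against day 0, 2 for latent against extravascular and 1 for high-score against low-score TCs. With limma on the mean log10 values they were 1 for day 3.5 against day 0, 1 for extravascular against intravascular, 1 for latent against proliferative and 1 for proliferative against extravascular. With low-score cells only below -1, which left latent libraries alone, 1 member was called, Timp1 at 1.202, with 6.43% of all genes called. With single libraries left out, the counts ranged from 0 to 1 for day 1.5 against day 0 and from 0 to 1 for day 3.5 against day 0, the 1 being Timp1 without day 0 replicate 2, which held 73 of the 74 day 0 reads (0.00575% of all genes called). The days had been used to choose the members, and leaving out that library removes nearly all day 0 reads, so nothing is read from this call. The counts ranged from 0 to 1 for latent against extravascular, with 0 without extravascular replicate 1, 2 or 4 or latent replicate 3, while without latent replicate 2 the 1 member called was Timp3 and not Timp1 (6.16% of all genes called). The gates had been used to choose the members, and 1 cell of latent replicate 4 held 210 of the 249.3 latent Timp3 reads. Without the top cell of each library the latent Timp3 mean was 0.118 CPM. With the replicate block, 0 members were called between EC days, Timp1 stayed called for latent against extravascular (-0.46), and no call on a member changed in the contrasts it covered. Contrasts with the culture or proliferative pool were not fitted with the block. For extravascular against intravascular, where the number is a pairing, 2% of genes were called with the block and 1.12% without it. Reversed values, none of them called, were Timp1 in aCap against gCap at 0.0322 with no replicate block, and for high-score against low-score TCs Mmp14 at -0.0009 without latent replicate 3 (range with 1 library left out -0.0009 to 0.1796), Timp2 at 0.0137 with low-score cells below -1, Timp3 at -0.0019 without latent replicate 1 (range -0.0019 to 0.8941) and the Timp3 share of cells with 10 or more reads at -0.173 points. The cause was not tested. The median of all genes for aCap against gCap was -0.38 with edgeR and 0.19 with DESeq2. For high-score against low-score TCs it was 0.15 with edgeR and -0.12 with DESeq2. Shares of all tested genes called that moved their count by over 1.5 times were, with DESeq2, 5.22% for extravascular against intravascular, 10.7% for latent against extravascular, 2.7% for proliferative against extravascular, 7.43% for intravascular against culture, 13.7% for aCap against gCap and 6.01% for high-score TCs. With limma they were 2.71%, 0.0192% and 4.07% between EC days (day 1.5 against 0, 3.5 against 1.5 and 3.5 against 0) and 15%, 40.3%, 0.852%, 17.5% and 17.6% in the gate contrasts in the order of the text. Without the filter on low counts they were 0.356% for extravascular and 0.16% for proliferative cells against the intravascular and extravascular gate, with all sorted cells 0.798% for proliferative against extravascular and 1 gene in each contrast of a later EC day with day 0, and with low-score cells below -1, 6.43%. The count with 4 proliferative replicates was not run, since the annotation names 1 animal. For Mmp3, Mmp9 and Mmp13 in ECs, 0 reads in the 699 cells of day 3.5 allow a share of up to 0.429%.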
